A study of Mus musculus with 6 samples.

Results

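Transcripts of 10 chemokines and inflammatory cytokines were followed in vascular endothelial cells (VECs) sorted from the retinas of mouse pups at P7.5. The genes were Ccl2, Ccl3, Ccl4, Ccl7, Ccl12, Cxcl2, Cxcl10, Tnf, Il1a and Il1b, and they were found by symbol among the 55487 genes of the deposited table. Each symbol had 1 row, and all 10 genes passed the filter on reads (at least 10 reads in at least 3 libraries) that left 20459 genes for testing. The control group was 3 libraries of tdTomato FL/+;Pdgf-icreER pups. The mutant group, here called Bmal1;CKO, was 3 libraries of pups that were Bmal1 FL/FL on top of these alleles. All pups thus carried the inducible Cre and the tdTomato reporter, all were given tamoxifen between P0.5 and P2.5, and all retinas were taken at ZT6. The Cre transgene is driven from Pdgfb sequences, which are active in endothelium but also in some other cells, and cells were sorted for both GFP and tdTomato after the retina had been dissociated with collagenase at 37 °C. The comparison asks whether the loss of Bmal1, a core activator of the circadian clock, in this compartment goes with a different level of these signals.

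Chemokines are small secreted proteins that guide leukocytes and microglia through G protein-coupled receptors, and they are grouped by the spacing of their first cysteines into CC and CXC families. TNF and the interleukin-1 cytokines are made early in an inflammatory response, mostly by cells of the macrophage lineage, and act on the endothelium, where they induce adhesion molecules. Transcription of all these genes is commonly driven by NF-κB, and many of their mRNAs are short-lived. In the developing retina microglia lie along growing vessels, and both microglia and endothelium are known sources of chemokines.

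Each library held between 71145068 and 104017800 reads on genes. The values are normalized counts, which are reads divided by the size factor of the library, and the size factors ranged from 0.711 to 1.40. Columns of the deposited table are called control libraries 1 to 3 and Bmal1;CKO libraries 4 to 6. The control libraries differed more from each other (chi-square per gene between pairs, 490.2 to 1125) than the Bmal1;CKO libraries did (195.2 to 282.0), and control libraries 1 and 3 were the pair furthest apart of all 15. Endothelial markers such as Cldn5, a tight junction protein (60099 to 201094 normalized counts), were present in every library. So were the microglial markers C1qb, a complement subunit (594051 to 1855100), P2ry12 (32939 to 50379) and Tmem119 (18130 to 60414), so the libraries held microglial as well as endothelial transcripts. They also held rod transcripts, with the rod marker Prph2 at 110061 to 158929. Arntl, which encodes BMAL1, was at 1700, 3489 and 2928 normalized counts in control and at 1779, 2747 and 2415 in Bmal1;CKO. Its groups overlapped (log2 fold change -0.19, SE 0.36, limma-trend adjusted p = 0.924), and a count over the whole gene also holds reads from exons outside a deleted part, so it does not check the deletion. The paper measured Bmal1 transcript by droplet digital PCR in sorted endothelial cells and reports a significant reduction in the mutant.

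Promoter sequence is shown for the 4 genes that stand for the main patterns in the data: Ccl3 for the abundant CC chemokines, Tnf for the cytokines, Cxcl2 as the gene whose groups did not overlap, and Cxcl10 as the gene with the widest spread between Bmal1;CKO libraries. The sequences are from RefSeq on GRCm38.p6, are written 5′ to 3′ on the strand of the gene, and end at the base before the annotated start. Capitals mark matches on either strand to the NF-κB consensus, AP-1 (TGANTCA), the TATA box (TATAAA), the E-box bound by CLOCK and BMAL1 (CACGTG) and the core of the interferon-stimulated response element (GAAA, any 2 bases, GAAA), with the letters of overlapping matches joined.
Ccl3, chr11:83649379-83649628, minus strand: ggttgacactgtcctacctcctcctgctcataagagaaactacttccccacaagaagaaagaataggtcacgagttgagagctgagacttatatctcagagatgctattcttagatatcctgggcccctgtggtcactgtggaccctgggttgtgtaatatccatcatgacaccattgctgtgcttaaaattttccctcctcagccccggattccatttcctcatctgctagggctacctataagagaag
Tnf, chr17:35202008-35202257, minus strand: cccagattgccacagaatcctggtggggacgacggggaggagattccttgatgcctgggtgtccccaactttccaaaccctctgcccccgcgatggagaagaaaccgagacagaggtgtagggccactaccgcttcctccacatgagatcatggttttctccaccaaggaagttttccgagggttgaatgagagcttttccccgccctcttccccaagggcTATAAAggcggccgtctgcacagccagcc
Cxcl2, chr5:90903649-90903870, plus strand: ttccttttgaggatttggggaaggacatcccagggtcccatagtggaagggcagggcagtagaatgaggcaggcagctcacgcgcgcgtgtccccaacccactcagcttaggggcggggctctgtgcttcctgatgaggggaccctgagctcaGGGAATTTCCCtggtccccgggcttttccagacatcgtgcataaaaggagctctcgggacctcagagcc
Cxcl10, chr5:92348890-92349139, minus strand: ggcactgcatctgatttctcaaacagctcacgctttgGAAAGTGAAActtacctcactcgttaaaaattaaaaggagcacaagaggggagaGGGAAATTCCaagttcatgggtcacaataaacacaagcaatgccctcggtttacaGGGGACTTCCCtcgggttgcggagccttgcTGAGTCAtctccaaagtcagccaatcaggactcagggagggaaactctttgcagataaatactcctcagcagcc

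Promoters were found for 7 of the 10 genes (Ccl3, Ccl12, Cxcl2, Cxcl10, Tnf, Il1a and Il1b). The NF-κB consensus was matched in Cxcl2, by overlapping matches that start 69 and 68 bases before the start, and in Cxcl10, at 159 bases and by overlapping matches at 104 and 103 bases. It was present in 7.25% of the 32851 promoters of 250 bases. The window searched for Cxcl2 was shorter, at 222 bases. AP-1 was matched in Cxcl10 (74 bases before the start) and Il1a (12 bases), against 6.75% of all promoters. The TATA box was matched in Ccl12, Tnf, Il1a and Il1b, at 29 to 32 bases before the start, against 12.4%. The core of the interferon-stimulated response element was matched in Cxcl10 alone, 213 bases before the start, against 2.98%, and the E-box in 0 of 7 against 6.02%. These matches describe letters in this window only.

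None of the 10 genes differed between Bmal1;CKO and control by more than the libraries varied. In the limma-trend fit on log2(normalized count + 1), 0 of 10 passed an adjusted p under 0.05, as did 0% of all tested genes, and 0 of 10 passed an unadjusted p under 0.05, against 4.92% of all tested genes (3.17% higher and 1.75% lower in Bmal1;CKO). The same count was 0 of 10 with edgeR, limma-voom and DESeq2, where 3.8%, 4.87% and 5.94% of all tested genes passed an unadjusted p under 0.05. The log2 fold change, which is the difference between group means of log2 values, was above 0 for 7 of the 10 genes and below 0 for 3, with a median of 0.23 beside 0.11 over all tested genes. In counts of genes here and below, higher and lower refer to the sign of this fold change, which can differ from the order of the mean normalized counts: Ccl4, among the 7, had a mean of 44711 in control and 33581 in Bmal1;CKO. Unadjusted p-values ran from 0.194 to 0.985 and limma-trend adjusted p-values from 0.883 to 0.998. The groups did not overlap for 1 of 10 genes (Cxcl2, higher in Bmal1;CKO), against 11.2% of all tested genes (6.62% higher and 4.54% lower). The design sets a limit here, since an exact two-sided permutation test of 3 libraries against 3 cannot go below p = 0.1.

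**Figure D1:**
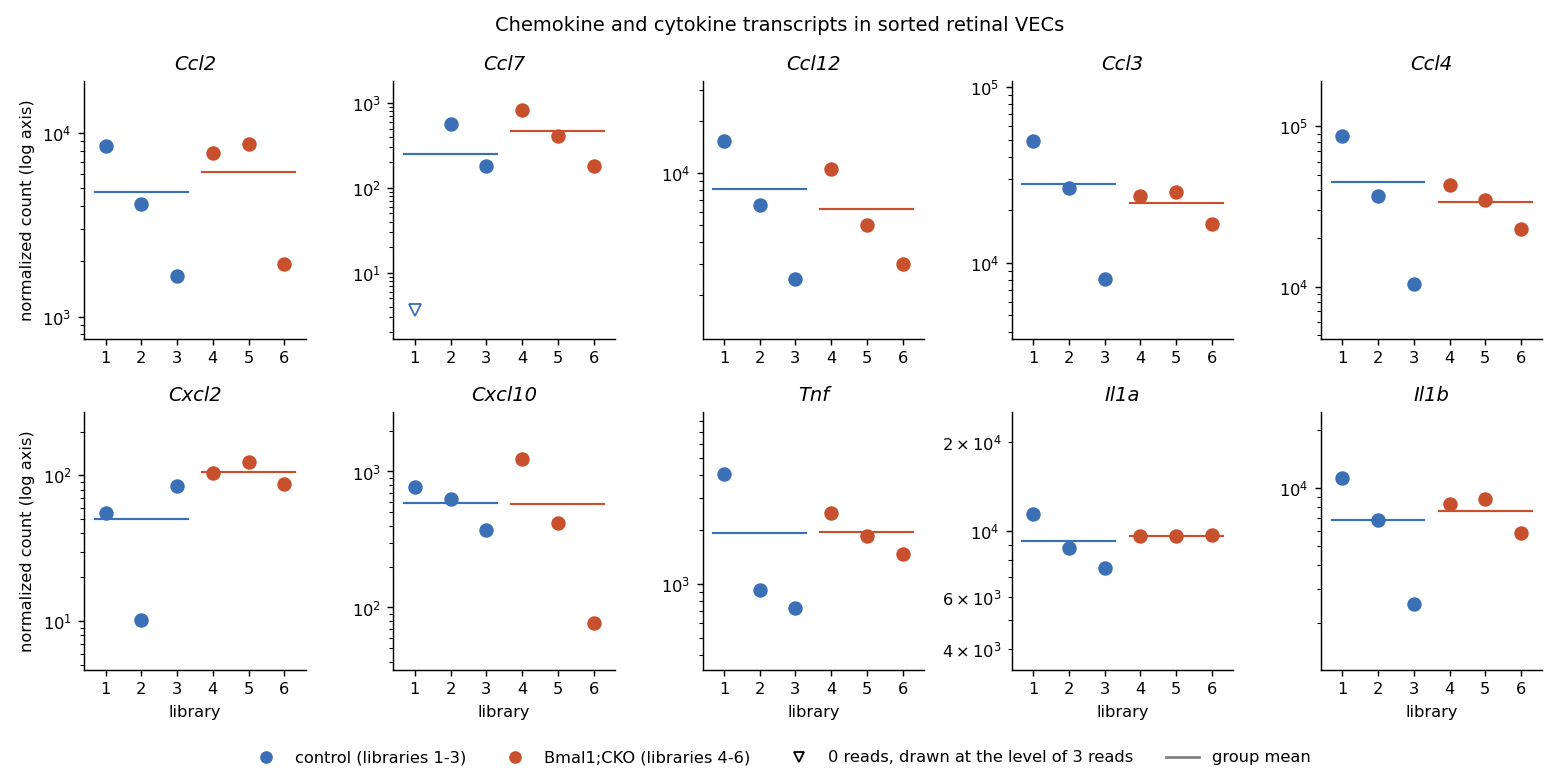
Normalized counts of the 10 genes (log axis, a different range in each panel) in control libraries 1 to 3 (blue) and Bmal1;CKO libraries 4 to 6 (red), with the mean of each group as a line. The open triangle is Ccl7 in control library 1, with 0 reads, drawn at the level of 3 reads; the groups overlap in every panel but that of Cxcl2, and in 9 of 10 panels library 6 is the lowest of the Bmal1;CKO libraries.

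The monocyte-attracting CC chemokines come first. Ccl2, Ccl7 and Ccl12 lie close together on chromosome 11 and all encode ligands of CCR2, the receptor that draws monocytes out of blood. Ccl2 (ENSMUSG00000035385, chr11:82035571-82037453 on GRCm38, plus strand) was at 8481, 4102 and 1668 normalized counts in control libraries 1, 2 and 3 and at 7818, 8735 and 1930 in Bmal1;CKO libraries 4, 5 and 6. The lowest and highest values of the groups were close, and the ranges overlapped almost fully. On the log2 scale the difference was 0.39 (SE 0.74, 95% interval -1.32 to 2.11), which spans 0.400-fold to 4.32-fold.

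Ccl12 (ENSMUSG00000035352, chr11:82101845-82103400, plus strand) was at 15350, 6566 and 2462 normalized counts in control and at 10584, 5060 and 3018 in Bmal1;CKO. The groups covered much the same range, with a log2 fold change of -0.21 (SE 0.70, 95% interval -1.84 to 1.43) and -0.39 in edgeR and DESeq2. The ratio of Ccl2 to Ccl12 lay between 0.553 and 0.739 in 5 libraries and at 1.73 in Bmal1;CKO library 5, the library in which Ccl2 was highest.

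Ccl7 (ENSMUSG00000035373, chr11:82045712-82047525, plus strand) was the least abundant CC chemokine of the 5. It was at 0, 563 and 184 normalized counts in control and at 826, 407 and 180 in Bmal1;CKO. No read was counted in control library 1, where 3 reads would be 3.69 normalized counts, while the other members of the group were well above that limit and within the Bmal1;CKO range. The size of the estimate depended on the libraries and the model: the log2 fold change was 3.06 (SE 2.19, 95% interval -2.03 to 8.16) with all libraries and 0.29 without control library 1. It was 4.86 without control library 2, 1.96 with a pseudocount of 10, and 0.90 and 0.92 in edgeR and DESeq2. Ccl2 and Ccl12 were at their highest control level in that same library.

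Ccl3 and Ccl4 carried most of the reads. They encode chemokines that attract macrophages and T cells, CCL3 among others through CCR1, and both are made in quantity by microglia and macrophages on activation. Ccl3 (ENSMUSG00000000982, chr11:83647844-83649355, minus strand) was at 49107, 26664 and 8111 normalized counts in control and at 23903, 25321 and 16598 in Bmal1;CKO. The control libraries enclosed all 3 Bmal1;CKO libraries, with a 6.05-fold range against 1.53-fold. The estimate on the log2 scale was -0.027 (SE 0.61, 95% interval -1.44 to 1.38), the interval reaches from 0.369-fold to 2.61-fold, and edgeR and DESeq2 put it at -0.34 and -0.35.

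Ccl4 (ENSMUSG00000018930, chr11:83662584-83664683, plus strand) lies next to Ccl3 and was at 87025, 36683 and 10427 normalized counts in control. It was at 43150, 34724 and 22869 in Bmal1;CKO, again inside the control range, which was 8.35-fold wide against 1.89-fold. Its log2 fold change was 0.014 (SE 0.71, 95% interval -1.63 to 1.66), and edgeR and DESeq2 put it at -0.41. The pair moved together, with a ratio of Ccl4 to Ccl3 between 1.29 and 1.81 in all 6 libraries. Their share of the summed normalized counts of the 10 genes was 72.6%, 69.1% and 54.5% in control and 62.1%, 63.2% and 63.9% in Bmal1;CKO.

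Of the CXC chemokines, Cxcl2 encodes a ligand of CXCR2 that draws neutrophils, and it was the least abundant of the 10 genes. Cxcl2 (ENSMUSG00000058427, chr5:90903871-90905938, plus strand) was at 55.4, 10.2 and 85.0 normalized counts in control and at 104, 124 and 87.3 in Bmal1;CKO. In reads these were 45, 11 and 119 against 74, 143 and 106. All 3 Bmal1;CKO libraries lay above all 3 control libraries, but library 6 and control library 3 nearly met, and the low control mean came from library 2. The log2 difference was 1.47 (SE 1.03, 95% interval -0.93 to 3.87, limma-trend adjusted p = 0.883), and the exact two-sided permutation test gave p = 0.1, the smallest it can give. Without control library 2 the log2 fold change was 0.59. Of the 7 promoters searched, those of Cxcl2 and Cxcl10 matched the NF-κB consensus. The part of these sites in the levels of either gene was not tested.

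Cxcl10, an interferon-induced ligand of CXCR3 that draws activated T cells, was the 1 gene of the 10 whose SD took a larger share of the mean in Bmal1;CKO than in control. Cxcl10 (ENSMUSG00000034855, chr5:92346638-92348889, minus strand) was at 770, 625 and 369 normalized counts in control and at 1240, 416 and 76.6 in Bmal1;CKO. The highest and the lowest of all 6 libraries were both Bmal1;CKO, a 16.2-fold range against 2.09-fold in control. Its log2 fold change was -0.72 (SE 0.97, 95% interval -2.98 to 1.54), and it was 0.35 without Bmal1;CKO library 6, -0.046 in edgeR and -0.026 in DESeq2. Measured against Ccl4, Cxcl10 varied 10.6-fold between libraries, the widest of the 5 ratios examined with no library at 0 reads. Art3, on the opposite strand, shares 133 exon bases with Cxcl10 and was at 412 to 2143 normalized counts, up to 1175% of Cxcl10 in 1 library. The strand setting of the counting is not given in the sources used here, and the part of such reads in the Cxcl10 count was not tested.

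Among the cytokines, Tnf encodes the ligand of the receptors TNFRSF1A and TNFRSF1B, a main inducer of endothelial adhesion molecules. Tnf (ENSMUSG00000024401, chr17:35199381-35202007, minus strand) was at 4086, 927 and 730 normalized counts in control and at 2481, 1840 and 1454 in Bmal1;CKO. Control library 1 was above every other library, and control libraries 2 and 3 were below every Bmal1;CKO library. For Tnf the log2 fold change was 0.42 (SE 0.64, 95% interval -1.07 to 1.92, limma-trend adjusted p = 0.907). Without control library 1 it was 1.19 and passed an unadjusted p under 0.05 (limma-trend adjusted p = 0.477), and 8.65% of all tested genes passed an unadjusted p under 0.05 in that fit. Without control library 3 it was -0.051, and edgeR and DESeq2 put it at 0.0091 and 0.0083, so the Tnf estimate depended on which control libraries were kept and on the model.

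Il1a encodes interleukin-1α, a cytokine active without cleavage that is released from damaged cells, and it was the steadiest of the 10 genes. Il1a (ENSMUSG00000027399, chr2:129299610-129309972, minus strand) was at 11438, 8775 and 7481 normalized counts in control and at 9589, 9586 and 9690 in Bmal1;CKO. The 3 Bmal1;CKO libraries were within 1.01-fold of each other, between control libraries 1 and 2. The difference on the log2 scale was 0.082 (SE 0.24, 95% interval -0.48 to 0.64), or 0.717-fold to 1.56-fold, and this was the only 1 of the 10 intervals that stayed within a factor of 2 on both sides. Gm14023 shares 222 exon bases with Il1a on the other strand and reached at most 8.20% of its normalized count.

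Il1b encodes interleukin-1β, made as a precursor that caspase-1 cleaves in the inflammasome. Il1b (ENSMUSG00000027398, chr2:129364570-129371139, minus strand) was at 11231, 6790 and 2501 normalized counts in control and at 8276, 8752 and 5853 in Bmal1;CKO. The Bmal1;CKO libraries lay inside the control range. A log2 fold change of 0.38 was estimated (SE 0.52, 95% interval -0.83 to 1.60), and edgeR and DESeq2 put it at 0.16. Il1bos, which shares 25 exon bases with Il1b, reached at most 0.760% of its level. The ratio of Il1a to Il1b was 1.02 to 1.66 in 5 libraries and 2.99 in control library 3, where Il1b was lowest.

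**Figure D2:**
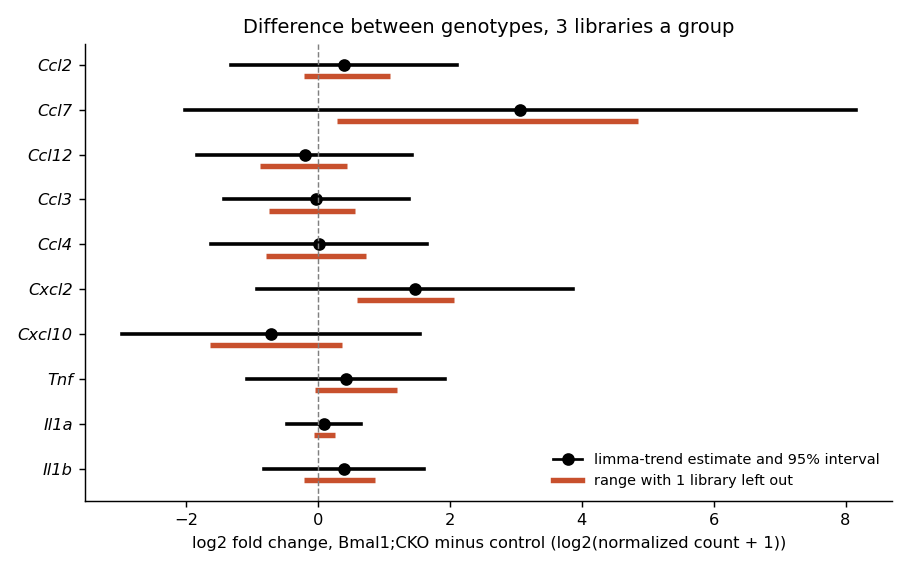
Log2 fold changes of the 10 genes, Bmal1;CKO minus control, on log2(normalized count + 1), with limma-trend estimates and 95% intervals (black) and the lowest to highest estimate when 1 of the 6 libraries was left out (red). All 10 intervals include 0; the interval of Il1a is the narrowest (-0.48 to 0.64) and that of Ccl7 the widest (-2.03 to 8.16).

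What the genes shared was the order of the libraries rather than a difference between genotypes. In 8 of the 10 genes control library 1 was above library 2 and library 2 above library 3, and the exceptions were Ccl7 and Cxcl2. Control library 1 was the highest of all 6 libraries for Ccl3, Ccl4, Ccl12, Tnf, Il1a and Il1b, and control library 3 was the lowest of all 6 for those 6 genes and Ccl2. Among Bmal1;CKO libraries, library 6 was the lowest for 9 of 10 genes, with Il1a the exception. The summed normalized count of the 10 genes was 187544, 91706 and 34018 in control and 107971, 94964 and 61755 in Bmal1;CKO, so the control libraries enclosed the Bmal1;CKO libraries. The SD as a share of the mean was larger in control than in Bmal1;CKO for 9 of 10 genes, for example 73.4% against 21.3% for Ccl3 (n = 3 each), with Cxcl10 the exception at 34.6% against 104%.

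**Figure D3:**
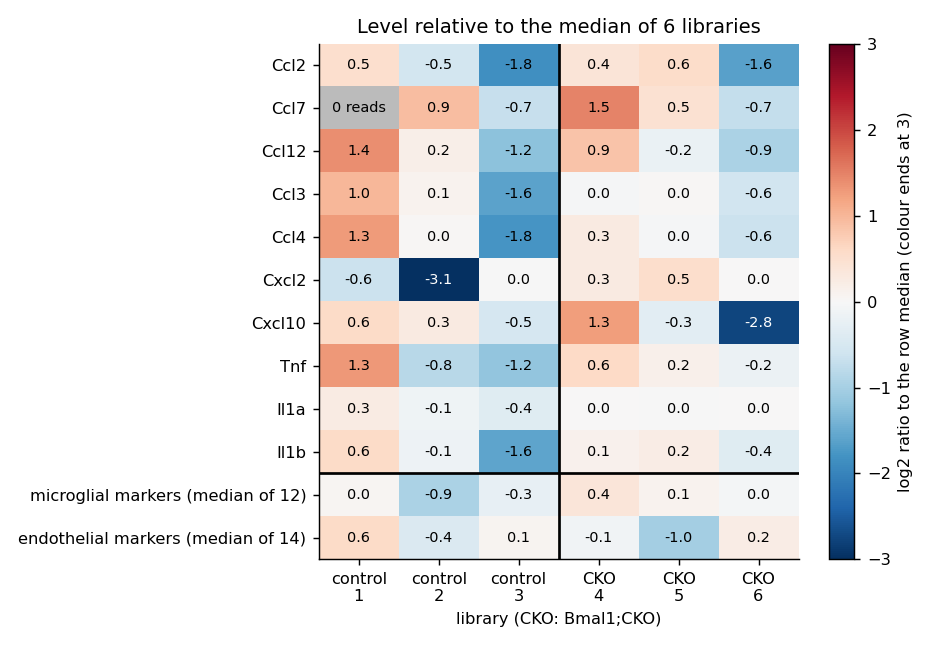
Log2 ratio of each library's normalized count to the median of the 6 libraries, for the 10 genes and, below the line, for the median of 12 microglial and of 14 endothelial markers. Numbers are the log2 ratios and grey marks 0 reads. Control library 1 is above the median for 8 of the 10 genes, with Ccl7 and Cxcl2 below it, and control library 3 is below it for all 10.

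Levels were compared between genes per kb of transcript, since longer transcripts give more reads. The median over 6 libraries was 54096 normalized counts per kb for Ccl4, 32130 for Ccl3, 10825 for Ccl12, 7331 for Ccl2, 5555 for Il1b and 4857 for Il1a. It was 1005 for Tnf, 369 for Ccl7, 343 for Cxcl10 and 46.4 for Cxcl2. Of the 9 pairs of neighbours in this order, only Il1a and Tnf had ranges that did not overlap (3790 to 5794 against 445 to 2493 normalized counts per kb). Within libraries the order was firmer: Ccl4 was above Ccl3, Ccl3 above Ccl12, Il1a above Tnf and Cxcl10 above Cxcl2 in 6 of 6 libraries, while Il1b was above Il1a, and Ccl7 above Cxcl10, in 4 of 6. On the same scale the median was 78756 for Cldn5 and 32118 for Cx3cr1, a microglial receptor.

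**Figure D4:**
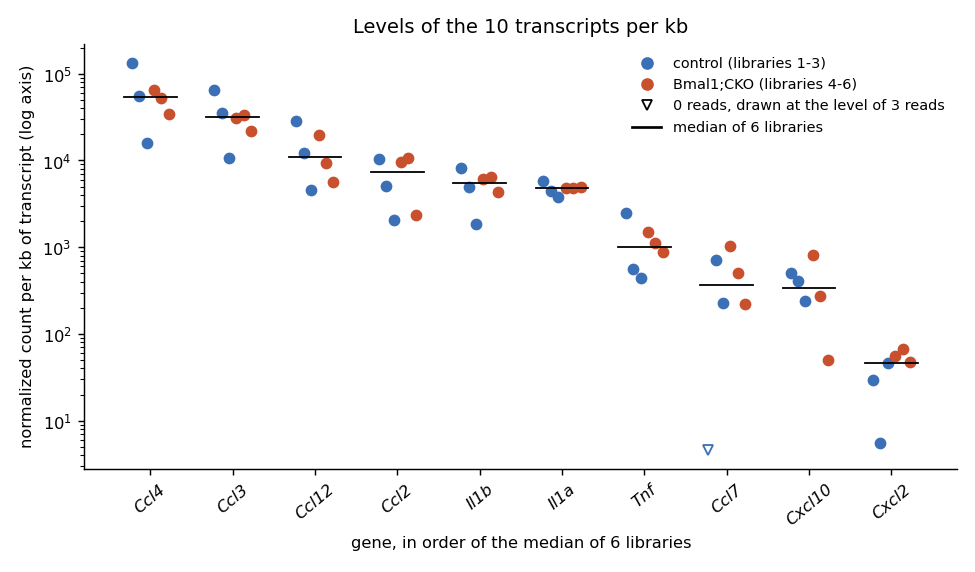
Normalized count per kb of transcript (log axis) of the 10 genes, in order of their median over 6 libraries (black line), with control libraries in blue and Bmal1;CKO libraries in red. The medians fall from 54096 for Ccl4 to 46.4 for Cxcl2, and Il1a and Tnf are the only neighbours whose ranges over the libraries do not overlap.

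The other ligands and cytokines of the pathway lay on both sides of 0. Of 28 further chemokine ligands with 1 identifier, 12 were tested, and 5 were higher and 7 lower in Bmal1;CKO (median log2 fold change -0.28). Ccl6, the most abundant of them and a macrophage product, was at 43478, 16180 and 13246 normalized counts in control and at 19066, 14725 and 12899 in Bmal1;CKO, with the same high library 1 as Ccl3 and Ccl4. Cxcl11, annotated as a polymorphic pseudogene and overlapping Art3 on the other strand, had 0, 0 and 1 reads in control and 60, 23 and 13 in Bmal1;CKO (limma-trend adjusted p = 0.883), the only ligand here under an unadjusted p of 0.05. It passed the filter on reads only through Bmal1;CKO, so its direction was set by the filter and its p-value carries no weight. Of the further inflammatory cytokines 10 of 19 were tested, 8 were higher and 2 lower, with a median of 0.57. Osm, encoding oncostatin M of the interleukin-6 family, was at 3099, 1453 and 1573 normalized counts in control and at 3166, 3704 and 3420 in Bmal1;CKO (log2 fold change 0.83, SE 0.35, limma-trend adjusted p = 0.883), and it passed an unadjusted p under 0.05. Tgfb1, the most abundant gene of that list, was at 3554 to 9096 in control and 6430 to 9228 in Bmal1;CKO.

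The receptors of the 10 ligands were detected unevenly. Among 17 tested chemokine receptors 13 had a log2 fold change above 0 and 4 below (median 1.74), but 8 of the 17 had 0 reads in at least 1 control library and 2 of the 17 in at least 1 Bmal1;CKO library, and the size of a fold change at such counts depends on the pseudocount. Ccr1, a receptor of CCL3, was at 18.5, 166 and 1733 normalized counts in control and at 810, 1482 and 811 in Bmal1;CKO, a control range that enclosed the other group. Ccr2, the receptor of CCL2, CCL7 and CCL12, was at 0, 0 and 11.4 in control and at 14.1, 0 and 31.3 in Bmal1;CKO, with at most 38 reads in a library. Cxcr2 was at 3248, 0 and 55.0 in control and at 253, 383 and 451 in Bmal1;CKO, so its mean was lower in Bmal1;CKO (362 against 1101) although its log2 fold change was 2.64, and edgeR and DESeq2 put it at -1.58 and -1.60.

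Cxcr3, the receptor of CXCL10, had 0, 0 and 82 reads in control and 241, 238 and 283 in Bmal1;CKO, and its groups did not overlap (limma-trend adjusted p = 0.883). Ccr6 had 2, 0 and 0 reads against 10, 102 and 16, so it passed the filter on reads only through Bmal1;CKO. Its direction and lack of overlap were thus set by the filter and carry no weight. Ccrl2, an atypical receptor that binds chemerin and is induced on activated macrophages and endothelium, was at 3392, 1838 and 3160 normalized counts in control and at 4906, 4722 and 6073 in Bmal1;CKO. Its log2 fold change was 0.94 (SE 0.31, limma-trend adjusted p = 0.883). These 3 of 17 receptors, Ccr6 included, passed an unadjusted p under 0.05, all higher in Bmal1;CKO. The share of all tested genes was 4.92% (3.17% higher). Cx3cr1, the most abundant receptor, was at 56491 to 150814 in control and 138568 to 173617 in Bmal1;CKO.

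Of 7 tested receptors and decoys of TNF and interleukin-1, 5 were higher and 2 lower (median 0.21). Tnfrsf1b, the TNF receptor found mainly on leukocytes and endothelium, was at 1714, 3192 and 7654 normalized counts in control and at 9648, 7742 and 10112 in Bmal1;CKO. All Bmal1;CKO libraries were above all control libraries, though library 5 and control library 3 nearly met (log2 fold change 1.39, SE 0.51, limma-trend adjusted p = 0.883), and it was the 1 gene of the list under an unadjusted p of 0.05. Tnfrsf1a, the widely expressed TNF receptor, was at 4995 to 7307 in control and 6369 to 8353 in Bmal1;CKO. Il1r1, the signalling receptor of both interleukins, stayed at 27.1 to 147 normalized counts, the decoy Il1r2 at 0 to 15.7, and the antagonist Il1rn was at 0, 223 and 410 in control and at 269, 349 and 352 in Bmal1;CKO.

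All 10 genes of cytokine processing and the inflammasome were tested, and 6 were higher and 4 lower (median 0.29). Nlrp3, the inflammasome sensor whose transcription is itself induced by NF-κB, was at 22.1, 19.5 and 151 normalized counts in control and at 326, 450 and 246 in Bmal1;CKO (log2 fold change 3.00, SE 0.98, limma-trend adjusted p = 0.883), again the 1 gene of its list under an unadjusted p of 0.05. Pycard, the adaptor between NLRP3 and caspase-1, was at 9811 to 29742 with overlapping groups. Of 18 tested genes of Toll-like receptor input 13 were higher and 5 lower (median 0.29), and Ticam1, the adaptor of TLR3 and TLR4, was at 56.6, 229 and 704 in control and at 1079, 919 and 1398 in Bmal1;CKO and passed an unadjusted p under 0.05. Cd14, the most abundant gene of that list, was at 6666 to 31360 with overlapping groups.

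Of 12 NF-κB subunits and kinases, 6 were higher and 6 lower (median 0.078). Tab1, a partner of the kinase TAK1, passed an unadjusted p under 0.05 (log2 fold change 0.74, SE 0.30, limma-trend adjusted p = 0.883), while Rela, the most abundant subunit gene, was at 2944 to 11470 with overlapping groups. Of 15 inhibitors and feedback genes, which NF-κB itself induces in many cells, 13 were higher and 2 lower in Bmal1;CKO (median 0.67), and 0 passed an unadjusted p under 0.05. Nfkbia, which encodes IκBα, was at 73870, 19475 and 17426 normalized counts in control and at 64164, 60571 and 30352 in Bmal1;CKO, with control library 1 again the highest. With 1 library left out 0 to 4 of the 15 passed an unadjusted p under 0.05, the 4 without control library 1, where 8.65% of all tested genes passed. Of the adhesion molecules that TNF induces on endothelium 2 of 4 were tested, 1 higher and 1 lower, and Icam1 was at 23625, 4875 and 8680 in control and at 17350, 16688 and 14579 in Bmal1;CKO (log2 fold change 0.69, SE 0.53, 95% interval -0.53 to 1.92).

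**Figure D5:**
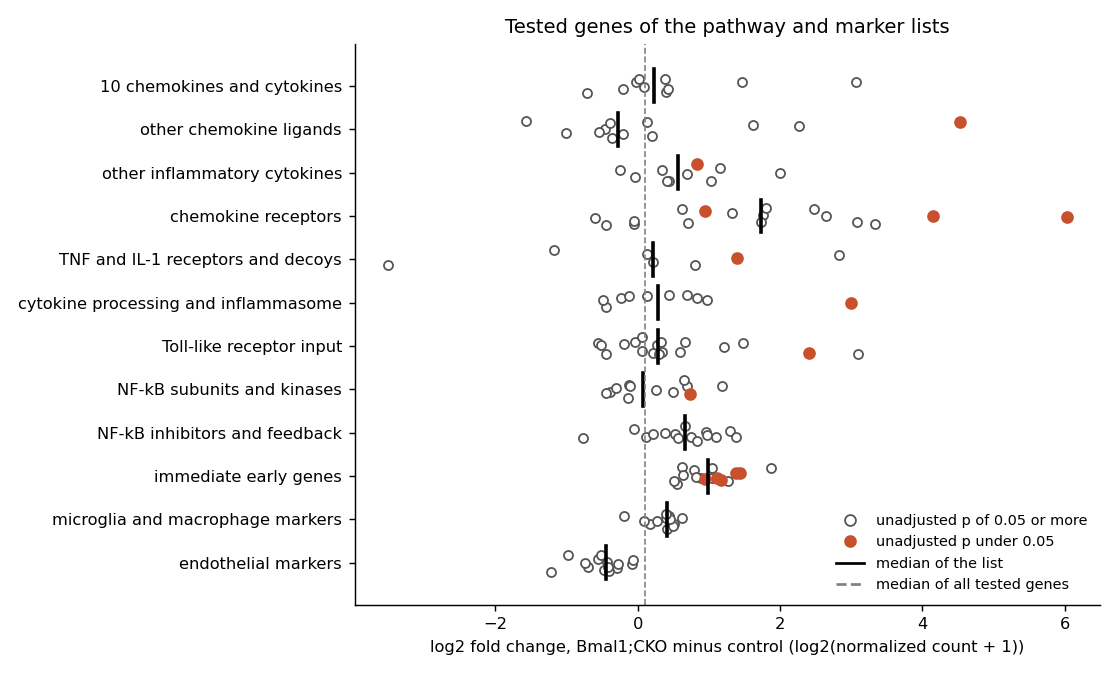
Log2 fold changes, Bmal1;CKO minus control, of the tested genes of 12 lists, with 1 point a gene, those with an unadjusted limma-trend p under 0.05 filled, the median of each list as a bar and the median of all tested genes as a dashed line. The 10 chemokines and cytokines lie on both sides of the dashed line with no filled point, and the 16 immediate early genes all lie to the right of 0.

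In bulk libraries fewer cells of a type and less RNA per cell cannot be told apart, so the makeup of the sorted cells is given beside these values. All 14 endothelial markers had a log2 fold change below 0 (median log2 fold change -0.45), with summed levels of 197601 to 388804 normalized counts in control and 120459 to 255465 in Bmal1;CKO, and 0 of 14 passed an unadjusted p under 0.05 in limma-trend. The median was -0.12 without control library 1 (11 of 14 lower), -0.11 without Bmal1;CKO library 5 (10 of 14) and -0.86 without Bmal1;CKO library 6 (14 of 14). Pecam1, an adhesion protein of endothelial junctions, was at 9898 to 11725 normalized counts in control and 4723 to 13475 in Bmal1;CKO (log2 fold change -0.56). Cdh5, or VE-cadherin, was at 2325 to 7151 against 1089 to 3730 (-0.70), and Kdr, the VEGF receptor, at 10214 to 19293 against 5126 to 10717 (-0.74), with overlapping groups for all 3. Of 12 microglial markers 11 were higher (median 0.41), with summed levels of 1537160 to 4470090 in control and 2249460 to 4420590 in Bmal1;CKO, and again 0 passed. The median of the microglial markers was 9.29, 9.35 and 10.5 times that of the endothelial markers in control and 18.2, 28.9 and 11.0 times in Bmal1;CKO. These groups did not overlap, but control library 3 and library 6 nearly met. With sums in place of medians the groups overlapped. Library 6 (2249460 microglial, 255465 endothelial) then had a lower ratio than control library 1 (4470090 microglial, 388804 endothelial). Their part in the levels of the chemokines and cytokines was not tested.

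Divided by the microglial median of the same library, the 10 genes still overlapped between groups in every case. Ccl3 was at 44.0%, 47.7% and 8.97% of that median in control and at 17.3%, 21.9% and 15.9% in Bmal1;CKO, a log2 difference of -0.55. Ccl4 stood at 78.0%, 65.6% and 11.5% against 31.3%, 30.0% and 21.9%. Tnf was at 3.66%, 1.66% and 0.807% against 1.80%, 1.59% and 1.39%, and Cxcl2 at 0.0496%, 0.0182% and 0.0940% against 0.0754%, 0.107% and 0.0837%, so Cxcl2 no longer separated the groups. Differences were 2.54 for Ccl7, 0.95 for Cxcl2, -0.51 for Ccl4, -0.10 for Tnf, -0.14 for Il1b, -0.13 for Ccl2, -0.44 for Il1a, -0.73 for Ccl12 and -1.24 for Cxcl10 on the log2 scale. Ccl2, Ccl3, Ccl4, Ccl12, Tnf and Il1b were still lowest of the 6 libraries in control library 3 on this scale, where the microglial median (90436 normalized counts) was between those of control libraries 1 and 2 (111639 and 55934). Divided by the endothelial median, the 10 genes overlapped as well. The log2 differences on that scale were 0.76 for Ccl2, 0.34 for Ccl3, 0.38 for Ccl4, 3.43 for Ccl7 and 0.16 for Ccl12. They were 1.84 for Cxcl2, -0.35 for Cxcl10, 0.79 for Tnf, 0.45 for Il1a and 0.75 for Il1b. The sign thus depended on the marker list for all genes but Ccl7, Cxcl2 and Cxcl10.

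Defining markers of neutrophils and monocytes were at or near 0. Of 10 neutrophil markers Ly6g, Elane, Ngp and Mmp8 had 0 reads in all 6 libraries, and S100a8 was at 0 to 9.85 normalized counts, with summed levels of the list of 0 to 84.3 in control and 9.85 to 119 in Bmal1;CKO, the highest of them nearly all Mmp9. The monocyte marker Chil3 had 0 reads in every library and Ly6c2 was at 1.23 to 2.78 in control and 3.45 to 83.0 in Bmal1;CKO, while Fn1, which endothelium also expresses, gave most of that list's sum (6514 to 25313 in control, 3895 to 8947 in Bmal1;CKO). Of the 3 tested monocyte markers 2 were higher and 1, Fn1, lower (median 2.33), and 0 passed an unadjusted p under 0.05. The median level of the 6 listed was 1.23 to 1.79 in control and 9.93 to 80.2 in Bmal1;CKO. The 6 perivascular macrophage markers summed to 127 to 549 in control and 269 to 292 in Bmal1;CKO, with Folr2 the most abundant, and of the 10 lymphocyte markers Ms4a1 was at 0 everywhere, with sums of 415 to 584 against 374 to 483, and Cd4 the most abundant on average (26.0 to 550). Pericyte markers (8 tested, 5 higher and 3 lower) were led by Rgs5 at 1626 to 17224 normalized counts, and of the 6 tested Müller glia and astrocyte markers 5 were higher, Apoe, which microglia also express, being by far the most abundant. Rod markers summed to 564230 to 638133 in control and 381625 to 667266 in Bmal1;CKO. Of 10 rod markers 9 were lower in Bmal1;CKO, and Cnga1 and Rcvrn passed an unadjusted p under 0.05 (limma-trend adjusted p = 0.883 for both). Without Bmal1;CKO library 4, 6 of the 10 were higher and 4 lower (median 0.075), and 0 passed.

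Immediate early genes, which are induced within minutes by dissociation and by inflammatory signals alike, had a log2 fold change above 0 for 16 of 16 (median 0.99), with summed levels of 407858 to 1201850 normalized counts in control and 942064 to 1438950 in Bmal1;CKO. Of these, 5 of 16 passed an unadjusted p under 0.05 (Fos, Jun, Egr1, Nr4a1 and Dusp1, limma-trend), 14 of 16 did without control library 1, where 8.65% of all tested genes passed, and 1 of 16 without control library 3, where 11.9% passed. Egr1, for example, was at 70396, 21870 and 27724 in control and at 106124, 81222 and 88712 in Bmal1;CKO. Junb, the most abundant, was at 291189, 87586 and 78781 in control and at 301110, 324860 and 182289 in Bmal1;CKO. Control library 1 was the highest control library for both, as it was for 8 of the 10 chemokines and cytokines. Their part in the chemokine and cytokine levels was not tested.

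Which libraries were kept decided the direction for most of the 10 genes. Without control library 1, 9 of 10 were higher in Bmal1;CKO (median 0.64), and without control library 3, 2 of 10 were (median -0.21). Without Bmal1;CKO library 6, 10 of 10 were higher (median 0.46). Groups did not overlap for 3 of 10 genes without control library 1 (Cxcl2, Tnf and Il1a), where 25.7% of all tested genes did not overlap, and for 2 of 10 without control library 3 (Cxcl2 higher, Ccl3 lower), where 30.7% did not. Cxcl2 and Ccl7 were higher in Bmal1;CKO in all 6 such fits, and the remaining 8 genes changed sign in at least 1 of them.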

How the data were processed

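RNA of the sorted VECs was amplified (Smart v4), made into Nextera XT libraries and sequenced as paired reads. The authors used FastQC and Trimmomatic for quality and trimming, Bowtie with mm10 (GRCm38) for alignment and featureCounts for counts per gene, and deposited, for each library, a signal: the count divided by a DESeq2 size factor. Bowtie's version and the strand setting are not given in the sources used here. The deposited table also holds the authors' mean, log2 fold change, SE and p-values, which were not used. Column numbers differ from the sample numbers of the series, so each column was taken as a replicate of its genotype. The study's methods give 3 animals a genotype. P-values measure the spread between these libraries.

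Whole reads were recovered for 100% of values above 0 and up to 2000 reads (within 0.1 read). Higher values were rounded to whole reads without this check. The fit was limma-trend (limma 3.58.1, R 4.3.3) on log2(normalized count + 1) for genes that reached 10 reads in 3 or more libraries, with 1 term, genotype, and Benjamini-Hochberg adjustment. Fold changes of low genes on this scale depend on the pseudocount, and 1 library at 0 can enlarge them. The limit set by a count of 0 was 3 reads, for counting error only. Alternatives were edgeR 4.0.16 with TMM and with DESeq2 size factors, DESeq2 1.42.0, limma-voom, limma-trend on TMM-scaled log2 CPM (prior count 2), pseudocounts of 0.5 and 10, other filters, each library left out, and sums in place of medians of marker lists. The fits were tested on simulated data. Positions and transcript lengths are from GENCODE M21, promoters from RefSeq. Exact permutation tests over libraries were run for single genes.

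The 10 genes and all lists were chosen with earlier results of these data known. Named are the 10 genes, the up to 3 genes of smallest unadjusted p (under 0.05) and the most abundant gene of each list, and a set of defining markers, receptors and Arntl. One gene of this rule is not reported here. Fos and Jun, and the neutrophil, monocyte and lymphocyte markers at 0 other than Ly6g, fall outside this rule and were named after their values were seen. Of the 253 listed symbols, 3 (Ccl19, Ccl21a and Ccl27a) had more than 1 identifier and were not used.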

Additional observations from a re-analysis of the deposited data

How the results depend on the processing

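No paired analysis was possible because the columns carry no replicate numbers of the labels. With 0 genes at FDR < 0.05 in the limma-trend fit (1007 at an unadjusted p under 0.05), the count was 1 with at least 1 read in total, 1 with at least 10 reads in every library, 67 with DESeq2 and 0 to 6 with 1 library left out. It was 6 without control library 1. The number of the 10 genes at an unadjusted p under 0.05 was 0 to 1 with 1 library left out, and the number whose groups did not overlap 1 to 3. With edgeR and DESeq2 the log2 fold changes of all tested genes had a median of -0.031 (TMM) and -0.029 in place of 0.11, and those of the 10 genes of 0.036 and 0.034 in place of 0.23, with 6 of 10 higher. Under edgeR with TMM, edgeR with DESeq2 size factors and DESeq2 respectively, the sign turned for Ccl4 (-0.41, -0.41, -0.41), Cxcr2 (-1.58, -1.60, -1.60) and Cd4 (-0.21, -0.21, -0.21). The cause was not tested.

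With 1 library left out, log2 fold changes ran from -0.21 to 1.09 for Ccl2, -0.75 to 0.55 for Ccl3, -0.80 to 0.73 for Ccl4, -0.88 to 0.44 for Ccl12, -1.65 to 0.35 for Cxcl10, -0.051 to 1.19 for Tnf, -0.058 to 0.25 for Il1a and -0.22 to 0.87 for Il1b. Among the other genes named the sign also turned for Arntl (-0.49 to 0.029), Ccl6 (-0.79 to 0.069), Cd14 (-0.21 to 0.91), Cd4 (-0.69 to 1.49), Cxcr2 (-0.27 to 5.56), Folr2 (-1.16 to 0.51), Mmp9 (-0.41 to 3.04), Prph2 (-0.21 to 0.076), Pycard (-0.45 to 0.35), Rela (-0.052 to 0.80) and Tmem119 (-0.24 to 0.63). The settings other than the left-out libraries, and other than edgeR and DESeq2 for Ccl4, kept the sign of the 10 genes (Ccl7 could not be tested with at least 10 reads in every library), and sums in place of medians of the marker lists moved no ratio by more than 1 SD. Counts for the lists with a library left out were added after the data were seen. Low counts in 1 library limit the estimates of Cxcl2 (11 reads in control library 2) and Ccl7 (0 reads in control library 1). Control library 1 was not the shallowest library (87212411 reads on genes, against 71145068 in Bmal1;CKO library 4), and the cause of these counts was not tested. With 3 libraries a group, intervals span several fold for 9 of the 10 genes.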
